A study of Mus musculus with 6 samples.

Results

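MYC, its obligate partner MAX and the proteins that compete for or share that partner form 1 network of transcription factors. The genes described here were the rows of the deposited count table with the symbols Myc, Max, Mxd1, Mxd3, Mxd4, Mnt, Mga and Mlx, 8 of 23453 gene rows. All 8 had enough reads to be among the 12423 genes tested. RNA was sequenced from 6 splenocyte cultures of wild-type OT1 mice (strain C57BL/6), in which a transgene gives most T cells 1 receptor, specific for OVA. The cultures received OVA peptide for 48 h and then, in the 3 samples titled TCM, TCM for 8 h, or, in the 3 samples titled vehicle, FCM for 8 h. The labels expand neither abbreviation. Whole splenocytes were stimulated, so the cultures could hold other spleen cells, although their labelled cell type is cytotoxic T lymphocytes. Whether the replicates are separate mice or separate cultures is not stated, so the p-values reflect the spread among these 6 libraries alone, and that spread may be technical.

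The deposited tables contradict each other on which group is which. In the normalized table all 6 columns equalled, up to 1 scale factor each, the count column with the same replicate number but the other group's title. All values below follow the titles of the count table and are called TCM-titled and vehicle-titled. Every direction turns round under the titles of the normalized table, and no source used here settles which is right. Library totals ran from 17166687 to 21197117 counts in the TCM-titled group and from 18729982 to 25789381 in the vehicle-titled group, so that 1 count was worth 0.0374 to 0.0655 CPM (counts scaled to the library size, with TMM factors). The ribosomal RNA row Rn45s made up 11.6, 18.9 and 18.0% of the counts in TCM-titled libraries 1 to 3. In vehicle-titled libraries 1 to 3 its share was 11.2, 16.0 and 16.0%. Replicate 1 of both groups stood apart from replicates 2 and 3 on the second principal component, which held 8.32% of the variance, while the first held 86.4% and separated the groups. Results are therefore also given without replicate 1 where that mattered.

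Markers of cells other than T cells differed between the groups. Of all 12423 tested genes 30.0% were lower and 28.8% higher in TCM-titled libraries (adjusted p under 0.05, edgeR). Of 16 neutrophil markers tested 15 fell and none rose, with Ltf and Mmp9 at 0.824 ± 0.207 and 11.2 ± 1.04 CPM in TCM-titled libraries, against 125 ± 15.01 and 152 ± 8.25 CPM in vehicle-titled libraries (SD, n = 3 each). No neutrophil or B cell marker rose with edgeR at an unadjusted p under 0.05 or with DESeq2 either, a count of 0 in both. Summed over the list the neutrophil level was 1547 to 2643 CPM in TCM-titled and 8877 to 13510 CPM in vehicle-titled libraries. For 13 monocyte and macrophage markers the sum was 254.5 to 294.7 CPM in TCM-titled and 893.2 to 1128 CPM in vehicle-titled libraries, and for 11 B cell markers 1080 to 1251 CPM in TCM-titled and 1884 to 2247 CPM in vehicle-titled libraries. The defining T cell markers were present in both groups, with 13 genes that summed to 1248 to 1302 CPM in TCM-titled and 1125 to 1218 CPM in vehicle-titled libraries and none of them at 0. Fewer cells of a type and less RNA per cell cannot be told apart in such bulk samples, and the part of these markers in the results on the network genes was not tested.

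MYC binds DNA as a dimer with MAX at E-boxes, of which CACGTG is the preferred form, and in T cells it is induced through the antigen receptor and drives growth and metabolic reprogramming. The MXD proteins and MNT dimerise with MAX at the same sites and recruit SIN3 and histone deacetylases, which repress. MGA joins MAX in a variant Polycomb repressor complex, and MLX is a MAX-like protein that pairs with MXD1, MXD4, MNT and the MONDO proteins.

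The promoters of the members are shown because these factors bind the letters CACGTG, which a script searched in RefSeq promoter windows on GRCm38.p6 (250 bases before to 50 after each start). CACGTG is its own reverse complement, so 1 search covers both strands. Of the 8 members, 7 had an entry: Max, Mxd1, Mxd3, Mxd4, Mnt, Mga and Mlx. The letters occurred once in each of 4 of these (Max, Mnt, Mlx and Mxd4), and 7.15% of all 32851 windows held them. Stretches of 120 bases follow for those 4 and for Mxd1, the member with the largest fold change, which had no match; capitals mark CACGTG. They lie at chr12:76962229-76962348, minus strand (Max), chr11:101087190-101087309, plus strand (Mlx), chr11:74830741-74830860, plus strand (Mnt), chr5:34187841-34187960, minus strand (Mxd4) and chr6:86669140-86669259, minus strand (Mxd1).
Max: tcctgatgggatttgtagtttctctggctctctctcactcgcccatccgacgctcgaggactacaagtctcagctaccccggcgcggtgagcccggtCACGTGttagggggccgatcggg
Mlx: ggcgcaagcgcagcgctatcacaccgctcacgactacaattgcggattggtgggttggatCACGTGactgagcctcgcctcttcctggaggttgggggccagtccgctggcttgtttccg
Mnt: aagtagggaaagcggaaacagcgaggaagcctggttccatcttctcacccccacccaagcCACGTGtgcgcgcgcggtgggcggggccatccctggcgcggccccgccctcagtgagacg
Mxd4: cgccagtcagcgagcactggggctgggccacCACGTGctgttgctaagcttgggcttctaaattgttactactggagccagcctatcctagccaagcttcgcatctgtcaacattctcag
Mxd1: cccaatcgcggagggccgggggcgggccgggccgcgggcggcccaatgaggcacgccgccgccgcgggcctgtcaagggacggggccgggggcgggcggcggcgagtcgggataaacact
The motif began 3 bases before the start in Max, 40 in Mlx, 123 in Mnt and 219 in Mxd4. Of the 4 genes with these letters, Mnt passed the test described next and Max, Mlx and Mxd4 did not, which says nothing on binding at any of them.

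TCM and FCM treatment were compared with edgeR's quasi-likelihood test and Benjamini-Hochberg adjustment over all 12423 genes. In TCM-titled libraries 4 members fell (Myc, Mxd1, Mnt and Mga), 1 rose (Mxd3) and 3 did not pass (Max, Mxd4 and Mlx). For the same 5 members that passed, no library of 1 group lay within the range of the other. These shares stand beside a wide background, since 58.8% of all tested genes passed, 28.8% higher and 30.0% lower, and the groups did not overlap in 64.2%. The 5 of 8 that passed are near the background and are no result about the network as such. The median log2 fold change over the members was -0.29, against -0.018 over all tested genes. Without replicate 1 of both groups the counts were again 4 lower and 1 higher.

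**Figure D1:**
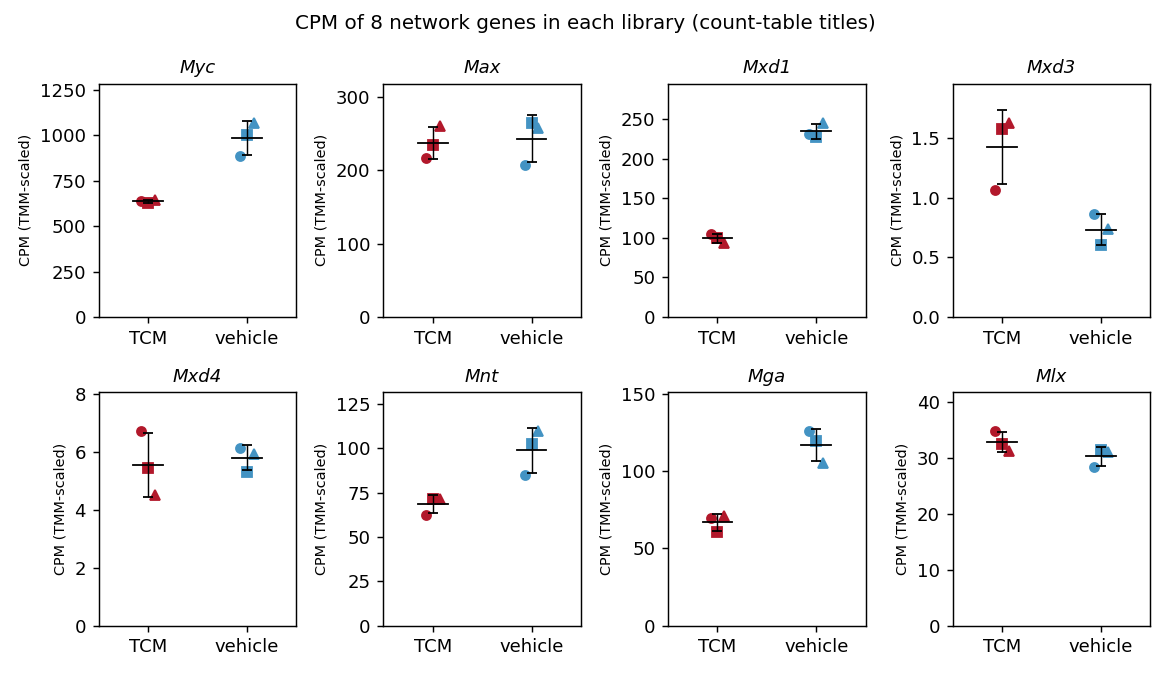
CPM of each member in every library, by the titles of the count table, with TCM-titled libraries in red and vehicle-titled libraries in blue. Circles, squares and triangles are replicates 1, 2 and 3, and bars give the mean ± SD (n = 3). As a ratio, Mxd1 shows the widest gap, with 94.0 to 105 CPM in TCM-titled against 227 to 246 CPM in vehicle-titled libraries.

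Myc, the activator of the network, had 638, 628 and 644 CPM in TCM-titled libraries 1 to 3, against 887, 1004 and 1072 CPM in vehicle-titled libraries 1 to 3. All TCM-titled libraries were lower than all vehicle-titled libraries, and the vehicle-titled ones were the more spread. Its log2 fold change was -0.63 ± 0.16 (SE; 95% interval -0.99 to -0.28; adjusted p = 0.00773, edgeR), a 1.55-fold lower level. The Myc call held when any 1 library was left out. It held narrowly without TCM replicate 2 (-0.61, adjusted p = 0.0464, edgeR) or without FCM replicate 3 (-0.57, adjusted p = 0.0463, edgeR). Libraries with the same number differed by -0.47, -0.68 and -0.74 on the log2 scale. Myc lies on chromosome 15 (61985391 to 61990374, plus strand, protein-coding, GENCODE M21 on GRCm38) and overlaps no other gene of the table.

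Max, which encodes the shared partner of MYC, the MXD proteins, MNT and MGA, had 216, 234 and 260 CPM in TCM-titled libraries 1 to 3 and 207, 265 and 257 CPM in vehicle-titled libraries 1 to 3. The groups overlapped, and replicate 1 was the lowest library of each. The log2 fold change was -0.037 ± 0.15 (SE; adjusted p = 0.85, edgeR) with a 95% interval of -0.39 to 0.31, so changes within that interval are not excluded. With a trend on exon length removed and the replicate number as a block it passed at -0.22 (adjusted p = 0.038, edgeR). Max lies on chromosome 12 (76937269 to 76962201, minus strand).

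Among the MXD repressors Mxd1, which rises when many cell types stop dividing and differentiate and is abundant in neutrophils, changed most. It had 105, 99.3 and 94.0 CPM in TCM-titled libraries 1 to 3, against 231, 227 and 246 CPM in vehicle-titled libraries 1 to 3. No library came near those of the other group. The log2 fold change was -1.24 ± 0.13 (SE; 95% interval -1.53 to -0.95; adjusted p = 6.43e-05, edgeR), a 2.36-fold lower level. Neutrophil markers had a median log2 fold change of -3.52 between these libraries, and their part in the fall of Mxd1 was not tested. Mxd1 lies on chromosome 6 (86647042 to 86669161, minus strand).

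Mxd3, the member of the family that is expressed in S phase in dividing cells, was the least expressed and rested on few reads. It had 20, 24 and 29 counts (1.06, 1.57 and 1.63 CPM) in TCM-titled libraries 1 to 3, against 19, 16 and 19 counts (0.862, 0.598 and 0.736 CPM) in vehicle-titled libraries 1 to 3. The groups did not overlap, but replicate 1 of the TCM-titled group lay closer to the vehicle-titled libraries than replicates 2 and 3. Its log2 fold change was 0.95 ± 0.27 (SE; 95% interval 0.34 to 1.57; adjusted p = 0.015, edgeR). The call was lost without TCM replicate 2 (0.89, adjusted p = 0.0569, edgeR), without TCM replicate 3 (0.84, adjusted p = 0.0596) or without FCM replicate 2 (0.83, adjusted p = 0.0562), with library totals alone as scaling (0.72, adjusted p = 0.0506) and with the exon length trend removed (0.55, adjusted p = 0.0982). Mxd3 (chromosome 13, 55325168 to 55329823, minus strand) shares 105 exon bases, 7.91% of its exon length, with Prelid1 on the opposite strand. Prelid1 had 244 ± 16.4 CPM in TCM-titled and 137 ± 15.1 CPM in vehicle-titled libraries (SD, n = 3 each) and rose by 0.83 on the log2 scale, and without a stated strand setting reads in the shared bases cannot be told apart.

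Mxd4, which is typical of resting and differentiating cells, had 6.70, 5.43 and 4.49 CPM in TCM-titled libraries 1 to 3 and 6.12, 5.31 and 5.93 CPM in vehicle-titled libraries 1 to 3. The TCM-titled libraries spanned the whole range of the vehicle-titled ones. The log2 fold change was -0.058 ± 0.17 (SE; 95% interval -0.44 to 0.33; adjusted p = 0.782, edgeR). Mxd4 lies on chromosome 5 (34173883 to 34187720, minus strand).

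Mnt, the broadly expressed MAX partner that opposes MYC in dividing as well as resting cells, had 62.7, 71.2 and 71.6 CPM in TCM-titled libraries 1 to 3, against 84.9, 102 and 110 CPM in vehicle-titled libraries 1 to 3. Replicate 1 was the lowest of each group and the groups did not overlap. The log2 fold change was -0.53 ± 0.14 (SE; 95% interval -0.85 to -0.22; adjusted p = 0.00985, edgeR), and same-numbered libraries differed by -0.44, -0.52 and -0.61. The call was lost without FCM replicate 3 (-0.45, adjusted p = 0.0501, edgeR) and with the exon length trend removed (-0.37, adjusted p = 0.0607). With that trend removed and the replicate number as a block Mnt passed, at -0.37 (adjusted p = 0.000578, edgeR). Mnt lies on chromosome 11 (74830920 to 74845725, plus strand).

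Mga, the scaffold of the MAX-containing Polycomb complex, had 69.5, 60.5 and 70.9 CPM in TCM-titled libraries 1 to 3, against 126, 119 and 106 CPM in vehicle-titled libraries 1 to 3. The groups were well apart. The log2 fold change was -0.80 ± 0.13 (SE; 95% interval -1.10 to -0.51; adjusted p = 0.000885, edgeR), a 1.75-fold lower level. With 13931 exon bases Mga (chromosome 2, 119897228 to 119969581, plus strand) is the longest member. Log2 fold changes over all genes declined with exon length, with a median of 0.46 in the shortest of 5 equal length classes and of -0.35 in the longest. With that trend removed Mga still passed, at -0.31 (adjusted p = 0.0369, edgeR), whereas Myc and Mxd1 kept -0.72 and -1.08.

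Mlx, the partner of MONDO proteins in glucose sensing, had 34.7, 32.4 and 31.2 CPM in TCM-titled libraries 1 to 3 and 28.3, 31.5 and 31.0 CPM in vehicle-titled libraries 1 to 3. The groups overlapped narrowly. The log2 fold change was 0.12 ± 0.11 (SE; 95% interval -0.13 to 0.36; adjusted p = 0.382, edgeR). Its direction was the other one with library totals alone (-0.086) and with the exon length trend removed (-0.059). Mlx (chromosome 11, 101087277 to 101092207, plus strand) shares 385 exon bases, 19.4% of its exon length, with Psmc3ip on the opposite strand. Psmc3ip had 7.41 ± 1.001 CPM in TCM-titled and 4.58 ± 1.04 CPM in vehicle-titled libraries (SD, n = 3 each). It rose by 0.70 on the log2 scale (adjusted p = 0.0121, edgeR). Without a stated strand setting, reads in the bases that Mlx shares with Psmc3ip cannot be told apart.

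**Figure D2:**
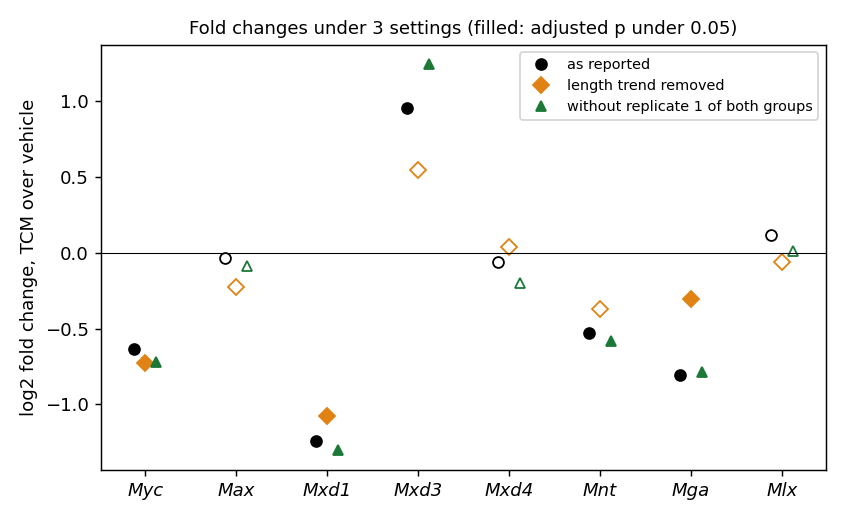
Log2 fold change of each member, TCM-titled over vehicle-titled, as reported (circles), with the exon length trend removed (diamonds) and without replicate 1 of both groups (triangles). Filled symbols passed an adjusted p of 0.05; Myc, Mxd1 and Mga are filled in all 3 settings, Mnt and Mxd3 are open with the length trend removed.

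Per kilobase of exon the members covered a wide range of levels. In TCM-titled libraries the order was Myc (260 ± 3.21 CPM per kb), Max (121 ± 11.3), Mxd1 (21.3 ± 1.15), Mlx (16.5 ± 0.897), Mnt (14.9 ± 1.10), Mga (4.81 ± 0.402), Mxd4 (1.43 ± 0.285) and Mxd3 (1.07 ± 0.234 CPM per kb; SD, n = 3). In vehicle-titled libraries it was Myc (403 ± 38.3 CPM per kb), Max (124 ± 16.1), Mxd1 (50.3 ± 2.08), Mnt (21.6 ± 2.77), Mlx (15.2 ± 0.857), Mga (8.39 ± 0.742), Mxd4 (1.49 ± 0.109) and Mxd3 (0.552 ± 0.0993 CPM per kb). Neighbours in these orders did not overlap between libraries, except Mxd4 and Mxd3 in the TCM-titled group. Mnt stood above Mlx in vehicle-titled and below it in TCM-titled libraries. In the latter the gap was narrow, with the highest Mnt at 15.59 and the lowest Mlx at 15.71 CPM per kb. The Mlx level may also hold reads from the bases shared with Psmc3ip. Of the summed level of all 8 members per kb, Myc made up 59.0 ± 1.26% in TCM-titled and 64.5 ± 0.712% in vehicle-titled libraries, Max 27.4 ± 1.84% and 19.8 ± 1.14%, and Mxd1 4.83 ± 0.385% and 8.08 ± 0.649%. The sum itself was 441 ± 12.1 CPM per kb in TCM-titled and 625 ± 57.0 CPM per kb in vehicle-titled libraries.

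The balance of activator and repressor transcripts was read within each library, where scaling between libraries cancels. The log2 ratio of Myc to the sum of Mxd1, Mxd3, Mxd4 and Mnt, in counts per kb, was 2.75, 2.705 and 2.79 in TCM-titled libraries 1 to 3, against 2.37, 2.49 and 2.48 in vehicle-titled libraries 1 to 3. All TCM-titled libraries were higher, by 0.30 on average, while Myc itself was lower in them. A two-sided exact permutation test gave p = 0.1, the smallest that 3 against 3 allows. With Mxi1 added to the sum, a choice made after seeing the data, the difference was 0.15 (exact p = 0.1). The trend of fold changes on exon length does not cancel in this ratio, since Myc has 2447 exon bases, Mxd1 4666 and Mnt 4590. With that trend removed, the log2 fold changes of Myc, Mxd1 and Mnt were -0.72, -1.08 and -0.37, against -0.63, -1.24 and -0.53 before. The ratio itself was not computed in that setting, so its dependence on the trend was not tested. The log2 ratio of Myc to Max was 1.24, 1.10 and 0.99 in TCM-titled libraries 1 to 3, against 1.78, 1.601 and 1.74 in vehicle-titled libraries 1 to 3. It was lower in all TCM-titled libraries, by -0.60 on average (exact p = 0.1, two-sided).

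**Figure D3:**
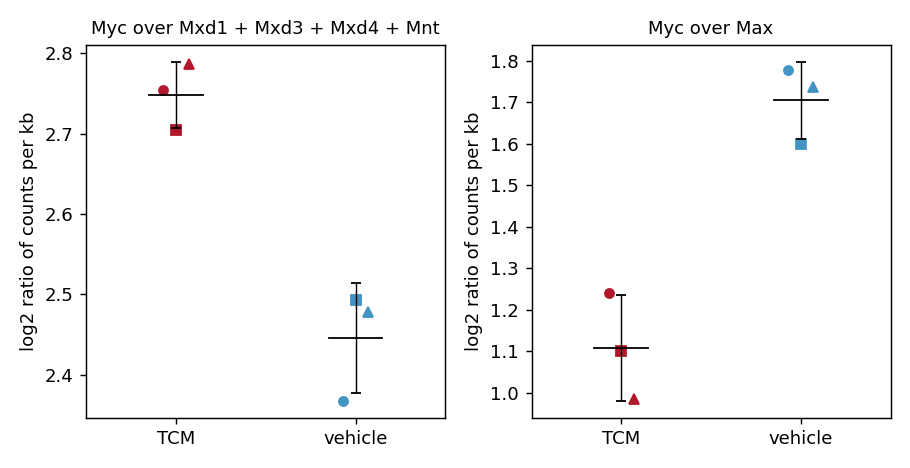
Log2 ratio per library of Myc to the sum of Mxd1, Mxd3, Mxd4 and Mnt (left) and of Myc to Max (right), in counts per kb of exon, for TCM-titled (red) and vehicle-titled (blue) libraries. Symbols are replicates 1 to 3 and bars the mean ± SD (n = 3); the axes do not start at 0. The left ratio averages 2.75 against 2.45, the right one 1.11 against 1.71.

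Other genes of the network moved in both directions. Of 8 such genes, 7 were tested: 3 rose (Mycn, Mxi1 and Mycbp), 2 fell (Mlxip and Mycbp2) and 2 did not pass (Mycl1 and Zbtb17). Mycn, a MYC paralogue, had 4.84, 5.69 and 7.70 CPM in TCM-titled libraries 1 to 3, against 1.41, 1.94 and 2.09 CPM in vehicle-titled libraries 1 to 3. The groups did not overlap, and the log2 fold change was 1.73 ± 0.23 (SE; adjusted p = 0.000257, edgeR), opposite to that of Myc. Per kb its level was 2.17 ± 0.523 CPM in TCM-titled libraries (SD, n = 3), far under the 260 CPM of Myc there. Mxi1, a further MXD repressor, had 39.4, 42.7 and 37.2 CPM in TCM-titled libraries 1 to 3, against 18.4, 16.9 and 19.7 CPM in vehicle-titled libraries 1 to 3. It rose by 1.11 ± 0.12 (SE; adjusted p = 6.80e-05, edgeR) while its relative Mxd1 fell.

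Mlxip, which encodes the MONDO partner of MLX, had 68.7, 49.1 and 46.7 CPM in TCM-titled libraries 1 to 3, against 120, 103 and 100 CPM in vehicle-titled libraries 1 to 3. Its log2 fold change was -0.97 ± 0.17 (SE; adjusted p = 0.0013, edgeR), with replicate 1 the highest of each group. Mlxipl, the second MONDO gene, had 0 to 3 counts per library and was not tested. Mycbp, whose product binds MYC, had 51.7 ± 13.2 CPM in TCM-titled and 24.2 ± 2.94 CPM in vehicle-titled libraries, and Mycbp2, a large ubiquitin ligase, 123 ± 7.58 and 275 ± 22.7 CPM (SD, n = 3 each). Their log2 fold changes were 1.09 and -1.16. Zbtb17, which encodes MIZ1, a partner through which MYC represses genes, had 16.2 ± 1.29 CPM in TCM-titled and 19.6 ± 1.33 CPM in vehicle-titled libraries with a log2 fold change of -0.28 (adjusted p = 0.0694, edgeR), and passed with the replicate block (adjusted p = 0.0207) and without TCM replicate 1 (adjusted p = 0.0362) or replicate 1 of both groups (adjusted p = 0.0176). With the exon length trend removed it also passed (-0.32, adjusted p = 0.0352), and with the block as well (adjusted p = 0.00564). Mycl1 had 2 to 11 counts in TCM-titled and 10 to 17 counts in vehicle-titled libraries (adjusted p = 0.287, edgeR).

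**Figure D4:**
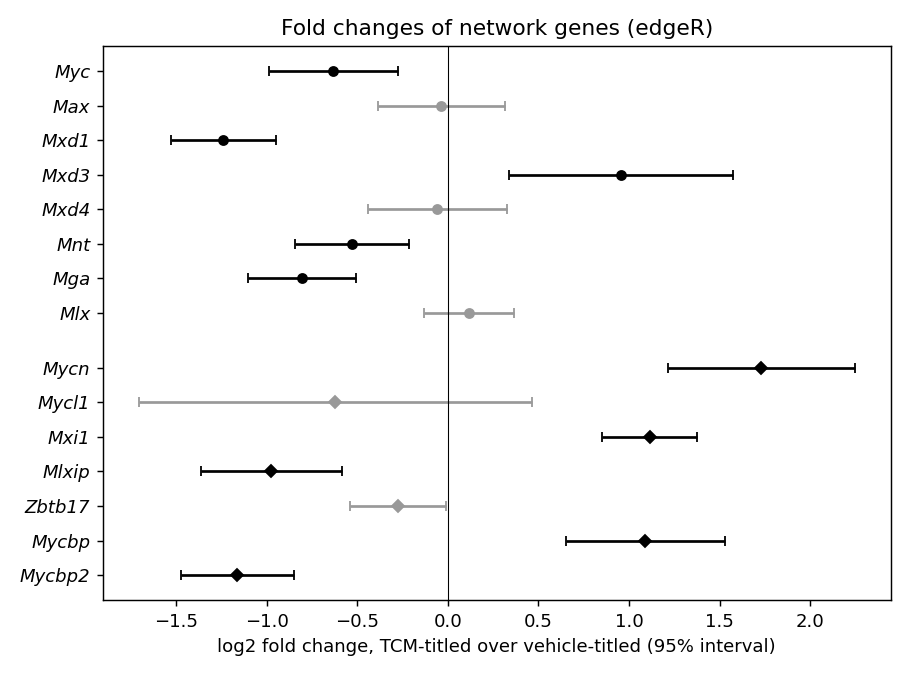
Log2 fold change, TCM-titled over vehicle-titled, with its 95% interval for the 8 members (circles) and 7 further network genes (diamonds), from edgeR on 3 libraries per group. Black symbols passed an adjusted p of 0.05 and grey ones did not; Myc at -0.63 and Mycn at 1.73 lie on opposite sides, as do Mxd1 at -1.24 and Mxi1 at 1.11.

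Lists of partners and targets of the network were counted against the same background of 28.8% higher and 30.0% lower. Of 16 MYC transcription cofactors 9 fell and none rose (median log2 fold change -0.41). They included Ep400 and Crebbp, a chromatin remodeller and an acetyltransferase (-0.80 and -0.95), and 5 fell without TCM replicate 2. With the exon length trend removed Ep400 did not pass (-0.34, adjusted p = 0.056, edgeR) and Crebbp had -0.55; with the replicate block as well Ep400 passed at -0.33. Of 17 genes of the SIN3 and HDAC corepressors of MXD and MNT 6 rose and 7 fell (median -0.029), or 1 and 7 with library totals alone as scaling. The deacetylase Hdac2 rose by 1.23 and Arid4a, a SIN3 complex subunit, changed by -0.77, and 4 fell without TCM replicate 3 or without FCM replicate 2. Of 13 partners of MGA 6 rose, among them Cbx3 and Yaf2 (0.96 and 0.89), and 2 fell (median -0.10). The number that fell was 6 with the replicate block, 5 without TCM replicate 1 and 1 without TCM replicate 2, FCM replicate 2 or FCM replicate 3, and 3 rose without FCM replicate 2 or 3.

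Of 6 tested targets of MLX and MONDO 3 fell, and 1 (Khk) rose, which did not pass without TCM replicate 2 or FCM replicate 2 (median -0.28). Txnip and Arrdc4, the arrestin-fold genes that MLX with MONDO proteins drives when glucose is high, had 56.3 ± 1.57 and 8.11 ± 0.665 CPM in TCM-titled libraries, against 132 ± 1.81 and 22.1 ± 0.833 CPM in vehicle-titled libraries (SD, n = 3 each). Their log2 fold changes were -1.23 ± 0.12 and -1.45 ± 0.12 (SE; adjusted p = 3.58e-05 and 1.54e-05, edgeR), beside -0.97 for Mlxip and 0.12 for Mlx. Of 18 genes that act on MYC protein stability or phosphorylation 3 rose and 4 fell (median 0.10), led by the kinase gene Pim2 at 1.27 and the deubiquitinase gene Usp36 at -1.06. With the replicate block, and without TCM replicate 1, 6 of them rose. Of 18 other E-box binding factors 3 rose and 6 fell (median -0.12), with Bhlhe41 at 1.70 and Tfec, a myeloid factor, at -2.46. Without TCM replicate 2, 3 of these fell, and without replicate 1 of both groups 5 rose and 10 fell.

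Of 43 genes activated by MYC 10 rose and 13 fell, with a median of 0.12 that was -0.10 with library totals alone and -0.064 with the length trend removed. Slc7a5 and Slc1a5, amino acid transporters, had 349 ± 20.2 and 220 ± 14.3 CPM in TCM-titled libraries, against 830 ± 63.3 and 479 ± 15.1 CPM in vehicle-titled libraries (SD, n = 3 each). They fell by 1.25 and by 1.12 on the log2 scale. Without FCM replicate 2 or FCM replicate 3 the number that rose was 5, and without replicate 1 of both groups 18 rose and 20 fell. Of 14 tested genes repressed by MYC 7 rose and 2 fell (median 0.35), and Cdkn1a, a cell cycle inhibitor that p53 also drives, and Tob1 rose by 2.78 and 2.08. Of 17 T cell quiescence genes 6 rose and 3 fell, with Lef1 at 1.52 beside Tob1 and a median of 0.092 that was 0.42 with the length trend removed and -0.091 with library totals alone, and 6 fell without replicate 1 of both groups. Of 22 S phase and G2/M genes 15 rose and none fell (median 1.37), with Rrm2 and Tyms at 3.02 and 2.40. The count of 0 that fell here and the count of 0 cofactors that rose were each also 0 with edgeR at an unadjusted p under 0.05 and with DESeq2. In the S phase and G2/M list 1 gene fell without replicate 1 of both groups, and with the length trend removed plus the replicate block 1 gene of that list fell and 1 cofactor rose.

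**Figure D5:**
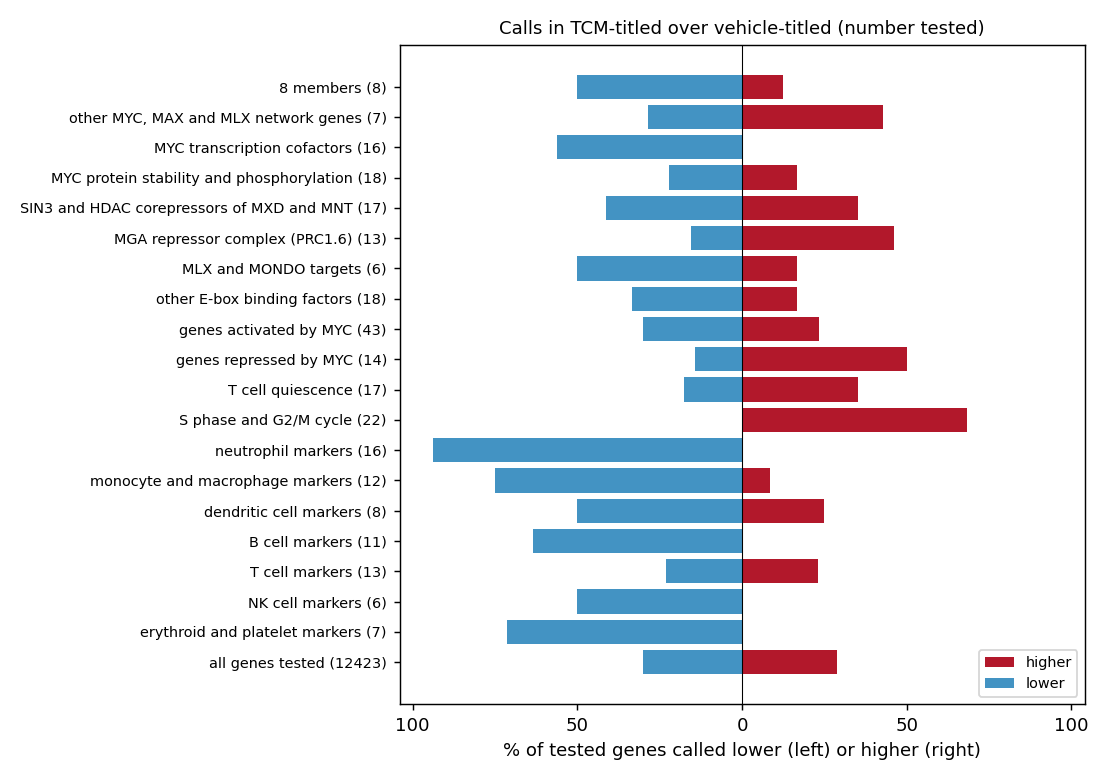
Percent of tested genes in each list called lower (left, blue) or higher (right, red) in TCM-titled over vehicle-titled libraries, with the number tested in parentheses and all 12423 tested genes at the bottom. The 8 members have 4 lower and 1 higher, the cofactors 9 lower and none higher, and the S phase and G2/M genes 15 higher and none lower.

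The genes with the profile most like each called member over the 6 libraries were ranked by the root mean square difference of log2 CPM centred on each gene's mean, over the 8347 named genes whose log2 CPM averaged 3 or more. Nearest to Myc were Tuba4a (0.040) and Eif3g (0.043), and nearest to Mxd1 were Smpdl3b (0.040) and Ercc6 (0.055). Mxd3 lay nearest to Rnft1 (0.038) and Ppp6c (0.051), Mnt to Cited2 (0.034) and Cfp (0.036), and Mga to Anks3 (0.022) and Taf1 (0.031). With 6 libraries in 2 groups the measure weighs mainly the difference between the groups, and it is given as a description.

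The remaining marker lists were counted in the same way, beside 30.0% of all tested genes lower and 28.8% higher. Of 12 tested monocyte and macrophage markers 9 fell and 1 rose (Cd14), with Csf1r and Lyz2 at -1.90 and -3.66. Of 8 tested dendritic cell markers 4 fell and 2 rose, with Clec9a at -6.22 and Batf3 at 2.98, and 1 rose when any library other than TCM replicate 1 was left out. Of 11 B cell markers 7 fell, with Cd79b and Cd22 at -1.77 and -1.19, and none rose, or 1 with the replicate block. Of 13 T cell markers 3 rose and 3 fell, with Themis at 1.85 and Zap70 at -0.85, and 1 rose without TCM replicate 2. Of 6 tested NK cell markers 3 fell, with Ncr1 and Eomes at -0.75 and -1.38, and of 7 tested erythroid and platelet markers 5 fell, with Alas2 and Itga2b at -2.31 and -1.10. The medians of these 6 lists were -1.30, -0.43, -1.01, 0.061, -0.51 and -1.10 in that order.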

How the data were processed

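RNA was measured in 6 splenocyte libraries, 3 per group. The authors deposited exon read counts, as whole numbers for each gene symbol. In the normalized table that the authors deposited, values are a signal, namely counts divided by 1 size factor per library; 100% of its values above 0 gave whole reads at a tolerance of 0.1. The submitters' processing notes name mm10, DESeq2 1.28.1 and STAR 2.7.2d without their roles. The counting tool, strand setting and annotation behind the counts: not given in the sources used here. The 92 spike-in rows held 0 counts and were left out.

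The edgeR 4.0.16 package (R 4.3.3) was used for filterByExpr, TMM scaling and the quasi-likelihood test, with group as the sole term; the threshold was an adjusted p of 0.05. The standard error is the size of the log2 fold change over the square root of F. Log2 CPM used a prior count of 2. DESeq2 1.42.0 was an alternative. Exon lengths are merged exons of GENCODE M21 (GRCm38), matched for 23060 of 23545 rows. Same-numbered libraries deviated together (correlations 0.60, 0.15 and 0.36, all over 0.1). On that rule a fit with the replicate number as a block was printed as an alternative, and the main fit did not use the numbers. Only for replicate 1 did the libraries of both groups correlate best with their own number. TCM 3 with FCM 2 gave 0.42 and TCM 2 with FCM 3 gave 0.27, although FCM 3 correlated best with TCM 3. These values do not establish a pairing of replicates 2 and 3. No label says what a number marks. After the main fit, the same test was also run on counts simulated from the means and common dispersion of that fit. No result given here rests on that run.

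Members and gene lists were chosen with earlier results of these data known. Besides the members and other network genes, the 2 genes with the smallest p in each list are named, and the 2 nearest profiles of each called member.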

Additional observations from a re-analysis of the deposited data

How the results depend on the processing

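With the titles of the normalized table on the reads recovered from it, every reported sign turned round and no size changed. The members then had 4 genes higher and 1 lower, and their log2 fold changes became Myc 0.63, Max 0.037, Mxd1 1.24, Mxd3 -0.95, Mxd4 0.058, Mnt 0.53, Mga 0.80 and Mlx -0.12. The other network genes became Mycn -1.73, Mycl1 0.62, Mxi1 -1.11, Mlxip 0.97, Zbtb17 0.28, Mycbp -1.09 and Mycbp2 1.16. The genes named from lists became Alas2 2.31, Arid4a 0.77, Arrdc4 1.45, Batf3 -2.98, Bhlhe41 -1.70, Cbx3 -0.96, Cd22 1.19, Cd79b 1.77, Cdkn1a -2.78, Clec9a 6.22, Crebbp 0.95, Csf1r 1.90, Eomes 1.38, Ep400 0.80, Hdac2 -1.23, Itga2b 1.10 and Lef1 -1.52. The remaining ones became Ltf 7.26, Lyz2 3.66, Mmp9 3.76, Ncr1 0.75, Pim2 -1.27, Rrm2 -3.02, Slc1a5 1.12, Slc7a5 1.25, Tfec 2.46, Themis -1.85, Tob1 -2.08, Txnip 1.23, Tyms -2.40, Usp36 1.06, Yaf2 -0.89 and Zap70 0.85. The list medians became other MYC, MAX and MLX network genes 0.28, MYC transcription cofactors 0.41, MYC protein stability and phosphorylation -0.10, SIN3 and HDAC corepressors of MXD and MNT 0.029, MGA repressor complex (PRC1.6) 0.10, MLX and MONDO targets 0.28, other E-box binding factors 0.12, genes activated by MYC -0.12 and genes repressed by MYC -0.35. Those left became T cell quiescence -0.092, S phase and G2/M cycle -1.37, neutrophil markers 3.52, monocyte and macrophage markers 1.30, dendritic cell markers 0.43, B cell markers 1.01, T cell markers -0.061, NK cell markers 0.51 and erythroid and platelet markers 1.10. The log2 ratio of Myc to the repressor sum differed by -0.30 and that of Myc to Max by 0.60 under those titles.

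Scaling by library totals moved the median of all genes from -0.018 to -0.23 (log2), called 2364 genes higher and 3965 lower against 3584 and 3726 with TMM, so that 37.4% of calls were higher against 49.0%, and left no member higher (Mxd3 at 0.72). It put Mlx at -0.086 and the medians at -0.12 for MYC protein stability, -0.10 for genes activated by MYC, -0.091 for T cell quiescence and -0.14 for T cell markers. It called 1 gene higher for MYC protein stability (3 with TMM), 1 for the corepressors (6), 3 for the partners of MGA (6), 0 for targets of MLX and MONDO (1), 5 for genes activated by MYC (10) and 0 for monocyte and macrophage markers (1). With the exon length trend removed Mxd3 (0.55) and Mnt (-0.37) no longer passed, no member was higher, and Mxd4 (0.038) and Mlx (-0.059) changed sign; the T cell marker median was -0.21, that of genes activated by MYC -0.064 and that of T cell quiescence 0.42. Mycbp2 was then -0.64 and Pim2 0.77, both still called, Ep400 was lost and Zbtb17 gained. With the replicate block as well, Max passed at -0.22, Mnt and Ep400 passed again (-0.37 and -0.33), the T cell quiescence median was 0.39, Mxd3 was 0.55, Mxd4 0.029, Mlx -0.065, the T cell median -0.21 and that of genes activated by MYC -0.065, and again no member was higher. The replicate block alone gave 4509 genes higher and 4594 lower and changed no member's call, nor, beside Zbtb17, that of any other gene named by rule.

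Leaving out 1 library gave log2 fold changes of -0.14 to 0.033 for Max, 0.83 to 1.14 for Mxd3, -0.22 to 0.084 for Mxd4 and -0.63 to -0.45 for Mnt, and 0 to 1 members higher. The list medians ran from -0.33 to 0.40 for the other network genes, -0.051 to 0.12 for MYC protein stability, -0.12 to 0.025 for the corepressors and -0.22 to 0.083 for the partners of MGA. The median of the other network genes was 0.41 with a CPM over 1 required, since 1 gene fewer was tested, and that of the corepressors 0.0049 with DESeq2. Without replicate 1 of both groups the T cell median was -0.018. With Mxi1 added, the ratio of Myc to the repressor sum differed by 0.15 in place of 0.30. The causes of these differences were not tested. Fewer than 30 counts per library limit Mxd3 and Mycl1.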
